A study of Homo sapiens with 9 samples.

Results

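The MHC class I antigen presentation pathway was examined through 9 of its genes in OVCAR3 cells, an established human ovarian carcinoma line, with and without knockdown of GPX3. They were taken by gene symbol from the deposited count table: HLA-B, HLA-C, HLA-E, B2M, TAP1, TAP2, TAPBP, PSMB8 and PSMB9, 9 of its 58735 genes. All 9 passed the filter on low counts and so were among the 17023 genes tested. The cells carried 1 of 3 short hairpin RNAs, and RNA was sequenced after 72 h in culture. The control group (SCR) held a scramble hairpin, the second group (sh76) the hairpin shRNA#76 against GPX3, and the third (sh78) the hairpin shRNA#78 against the same gene, with 3 libraries in each group. All groups share the OVCAR3 background and the presence of a hairpin, and cells without a hairpin were not analysed here. The labels do not say whether the replicates were separate cultures or transductions, so p-values measure the spread between these libraries, which may be partly technical.

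Class I molecules show fragments of the cell's own proteins at its surface, where CD8 T cells and natural killer cells read them. Proteasomes cut the proteins. In cells exposed to interferon, the catalytic subunits PSMB8 and PSMB9 replace PSMB5 and PSMB6 and give the immunoproteasome. The transporter TAP, a pair of TAP1 and TAP2, carries the peptides into the endoplasmic reticulum, and tapasin, the product of TAPBP, bridges TAP to an empty class I molecule and helps it select a peptide. The class I molecule is a heavy chain, such as HLA-B, HLA-C or HLA-E, held by the light chain beta-2-microglobulin (B2M). Tumours of many kinds lose parts of this pathway, and interferons raise most of its genes.

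GPX3, which encodes a secreted glutathione peroxidase, was lower in every library with a hairpin against it. Its normalised read count, scaled to a common library size (CPM), was 173, 109 and 117 in SCR replicates 1 to 3, 56.8, 55.2 and 55.5 with sh76, and 35.3, 28.4 and 28.3 with sh78. Knockdown amounted to log2 fold changes of −1.25 with sh76 (adjusted p 0.00264) and −2.12 with sh78 (adjusted p 0.000125) in edgeR's quasi-likelihood test. Libraries held 14652965 to 21327562 counts. All 8 markers of ovarian carcinoma and epithelium were detected in all 9 libraries, with a summed level of 11652 to 12496 CPM in SCR, 10527 to 11435 in sh76 and 9632 to 10236 in sh78. Leukocytes are rich in class I transcripts, and their 6 markers summed to between 2.25 and 4.85 CPM per library, and CD3E was at 0 in 8 of 9 libraries. KRT8 and KRT18 had the largest falls in mean CPM from SCR to sh78 among the 8 markers. KRT8 was at 5562 ± 463 CPM in SCR and 3878 ± 300 in sh78 (SD, n = 3), and KRT18 at 2177 ± 244 and 1579 ± 109. EPCAM, at 317 ± 8.60 and 252 ± 11.4 CPM, CDH1, at 244 ± 10.7 and 208 ± 11.2, and WT1, at 108 ± 6.57 and 80.6 ± 23.1, also had lower means in sh78. KRT7, MUC16 and PAX8 had estimates above 0 with sh78 and were not called. With sh78 edgeR called 3 of the 8 markers lower and 0 higher, where 4.41% of all tested genes were called in either direction. The part of the lower epithelial sum in the members' values was not tested. In bulk RNA fewer cells of a type and less RNA per cell cannot be told apart.

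TAPBP, the gene of tapasin, was the member called against SCR with both GPX3 hairpins. TAPBP rose with both hairpins, by 1.64-fold with sh76 and 1.37-fold with sh78, while none of the other 8 members passed the test in any comparison. With sh76 the 1 member called among 9 stood against 3.58% of all tested genes called, with sh78 against 4.41%, and between the hairpins against 3.70%. The replicate numbers of the labels marked libraries that deviated together, so a fit with the number as a block was also made. It called 2 members with sh76, 4 with sh78 and 4 between the hairpins, at a background of 20.4%, 19.9% and 18.3% of all tested genes. The median log2 fold change of the 9 members was 0.11 with sh76, 0.02 with sh78 and −0.18 between sh78 and sh76, where that of all tested genes was 0.01, 0.01 and 0.00. By sign, 8 members lay above 0 with sh76, 5 with sh78 and 1 in sh78 against sh76, and 51.4%, 51.3% and 50.1% of all tested genes did. Both hairpins were compared with the same 3 SCR libraries.

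**Figure D1:**
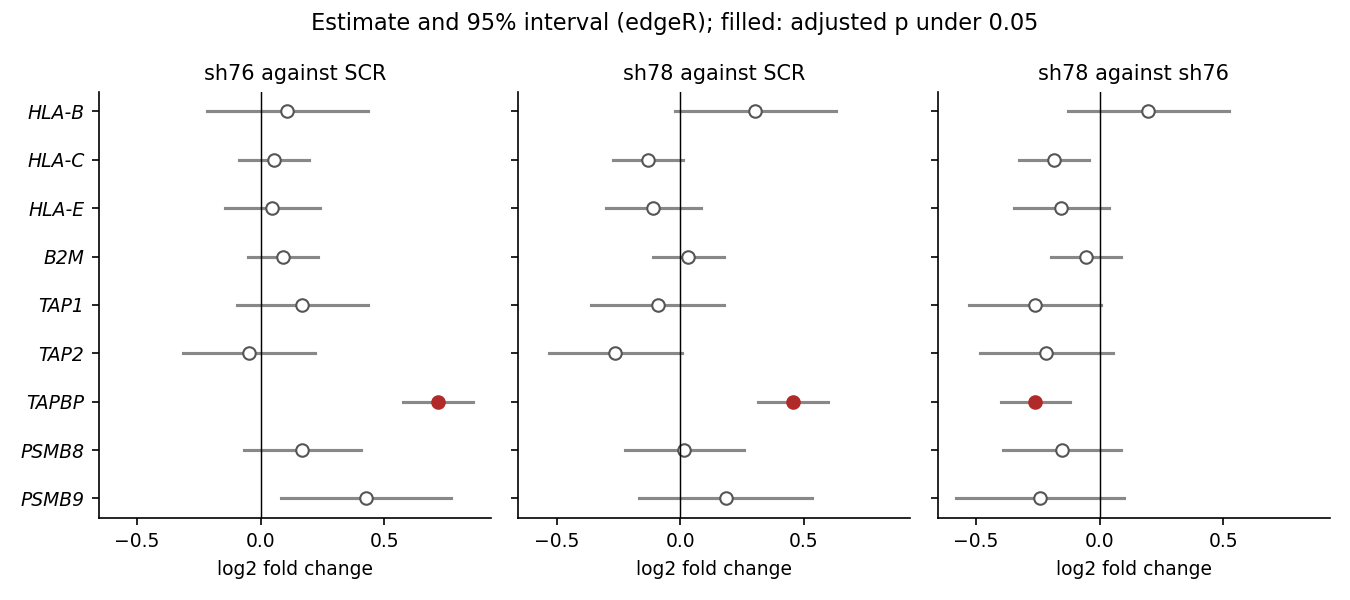
Log2 fold change (points) with its 95% interval (lines) for the 9 members in the 3 comparisons, from edgeR, with filled points for an adjusted p under 0.05. TAPBP is filled in all 3 panels (0.72, 0.46 and −0.26), and the other 8 members are open in each.

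In SCR cells the 9 genes covered a wide range of levels per gene length, given as FPKM (fragments scaled to gene length and library size). HLA-C stood highest at 158 ± 12.2 FPKM (SD, n = 3). B2M at 68.7 ± 3.96 and HLA-E at 67.6 ± 4.58 FPKM followed and did not differ beyond their spread. HLA-B had 21.8 ± 1.77 FPKM and TAPBP 18.8 ± 0.501, and their SCR ranges, 19.8 to 23.1 and 18.3 to 19.3, did not overlap. PSMB8 had 11.8 ± 2.13 FPKM. TAP2 at 3.46 ± 0.375, TAP1 at 3.07 ± 0.183 and PSMB9 at 2.40 ± 0.279 FPKM lay lowest, and the ranges of TAP1 and TAP2 overlapped. This order depends on the length used. For B2M the deposited gene model counts 6079 bases, against 1705 in the longest coding transcript of GENCODE 29, and for PSMB9 3072 against 792. Per kilobase of that transcript, B2M had 246 ± 13.0 CPM and HLA-C 256 ± 19.9 CPM, which did not differ beyond their spread. On that scale HLA-B had 43.2 ± 3.45, PSMB8 26.2 ± 4.62 and TAPBP 25.5 ± 0.684 CPM, and PSMB9, at 9.37 ± 1.05 CPM, stood above TAP1 at 5.01 ± 0.320 and TAP2 at 3.92 ± 0.409. TAPBP passed HLA-B on the FPKM scale in sh76 cells, at 30.9 ± 1.66 against 23.3 ± 4.11 FPKM, and lay beside it in sh78 cells, at 25.8 ± 1.54 against 26.9 ± 4.76 FPKM. Per kilobase of transcript it did not pass HLA-B: TAPBP had 41.9 ± 2.19 and HLA-B 46.5 ± 8.13 CPM in sh76 cells, and 35.0 ± 2.03 and 53.4 ± 9.40 CPM in sh78 cells.

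**Figure D2:**
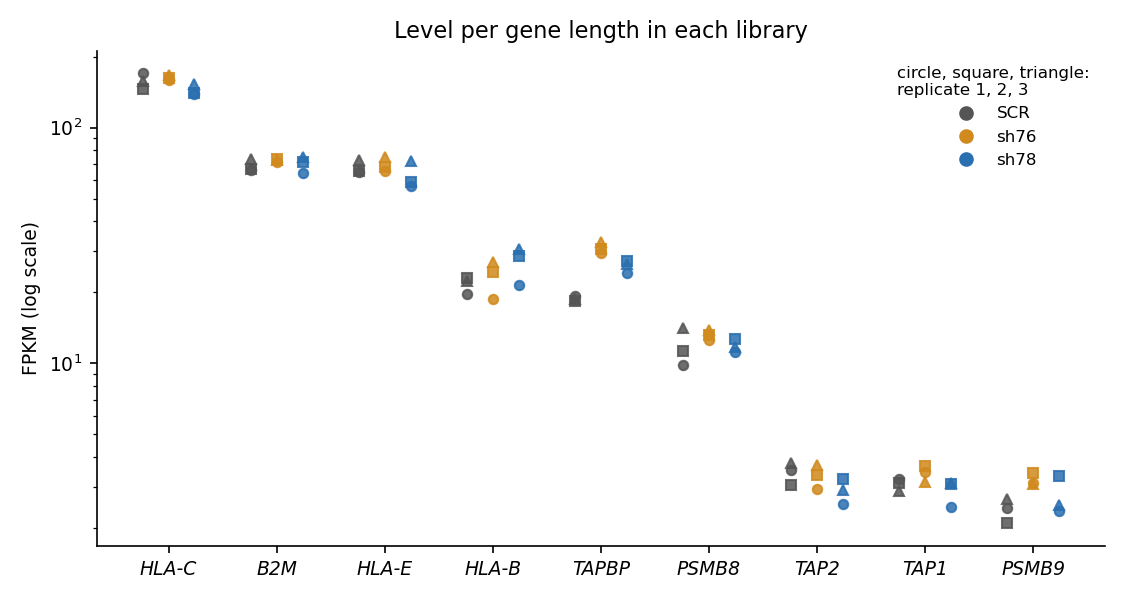
FPKM of the 9 members in each of the 9 libraries on a log axis, ordered by the mean in SCR, with colours for the groups and symbols for the replicate number. Levels run from above 100 FPKM for HLA-C to between 2.10 and 3.80 FPKM for TAP2, TAP1 and PSMB9 in SCR, and the shift of TAPBP is visible beside HLA-B.

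TAPBP (ENSG00000231925) lies on chromosome 6 at 33299694 to 33314387 on the minus strand of GRCh38, at the centromeric edge of the MHC, and shares no exon base with another annotated gene. Its level was 98.6, 93.5 and 95.3 CPM in SCR replicates 1 to 3, 150, 156 and 166 CPM with sh76, and 123, 138 and 134 CPM with sh78. Every library with a GPX3 hairpin lay above every SCR library, and the sh76 libraries lay above those of sh78. Its log2 fold change was 0.72 with sh76 (SE 0.07, 95% interval 0.58 to 0.86, edgeR adjusted p 5.99e-05) and 0.46 with sh78 (SE 0.07, 0.32 to 0.60, adjusted p 0.00127). Within replicate numbers 1, 2 and 3 it was 0.61, 0.74 and 0.80 for the first hairpin, and 0.32, 0.56 and 0.49 for the second. Both calls held in all 14 other settings, the 9 that leave out a library included.

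The hairpin group with less GPX3 knockdown had the higher TAPBP level. In sh78 against sh76, TAPBP was lower by a log2 fold change of −0.26 (SE 0.07, −0.40 to −0.12, edgeR adjusted p 0.0399). That call was lost in 7 of the 14 other settings: in a fit of the 2 groups alone (adjusted p 0.0505), and without SCR replicate 2, sh76 replicate 2 or 3, or sh78 replicate 1, 2 or 3, where the adjusted p ran up to 0.163. The estimate stayed between −0.29 and −0.21 in those fits. The depth of GPX3 knockdown and the identity of the hairpin cannot be told apart.

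Genes around TAPBP gave no call in the unblocked fit. After its values were seen, the 8 tested protein-coding genes within 50 kb of it were listed: VPS52, RPS18, B3GALT4, WDR46, PFDN6, RGL2, ZBTB22 and DAXX. None was called by edgeR's unblocked fit in any comparison, where 3.58%, 4.41% and 3.70% of all tested genes were called. With so few genes, a count of 0 lies near those shares. Their log2 fold changes ran from −0.08 to 0.16 with sh76 and from −0.38 to 0.17 with sh78. ZBTB22, the closest on the side of the 5′ end, was at 0.14 and 0.11. DAXX, which lies beyond it and encodes a histone H3.3 chaperone, was at 0.16 and 0.08. RGL2, the closest on the side of the 3′ end, was at −0.08 and −0.21.

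The RefSeq promoter window of TAPBP shares with those of other members a match to an element through which interferon-regulated factors act. RefSeq promoter windows on GRCh38.p14, from 250 bases before to 50 after each start, were found for 8 of the 9 members, in 10 windows, and HLA-E had no entry. They were searched on both strands for the core of the interferon-stimulated response element (ISRE), GAAANNGAAA. It was found in 5 members, TAPBP, TAP1, TAP2, PSMB8 and B2M, and in 3.57% of all 35116 windows of that table. The members are counted by gene here and the background by window. Of these 5, TAPBP was called by the unblocked fit and the other 4 were not. A match is a description of the letters and not a bound site. The windows of TAPBP, TAP1, TAP2 and B2M are shown because these genes hold the same core and differed in what was measured. Each has 60 bases, 5′ to 3′ on the strand of its gene, with every base of a match in capitals, and a match on the other strand appears as the reverse complement of the core.
TAPBP, chr6:33314061-33314120, minus strand: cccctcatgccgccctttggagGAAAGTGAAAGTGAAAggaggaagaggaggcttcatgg
TAP1, chr6:32853801-32853860, minus strand: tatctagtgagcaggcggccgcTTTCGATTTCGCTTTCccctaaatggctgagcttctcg
TAP2, chr6:32838763-32838822, minus strand: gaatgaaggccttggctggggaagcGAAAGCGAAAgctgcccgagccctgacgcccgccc
B2M, chr15:44711351-44711410, plus strand: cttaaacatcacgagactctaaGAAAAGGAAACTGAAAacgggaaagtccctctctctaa

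TAPBP, TAP1 and B2M each held 2 overlapping matches, and the first began 20, 134 and 144 bases before the RefSeq start whose window held it. TAP2 held 1 match, 58 bases before its start. PSMB8 and TAP1 each had 2 listed starts, and the matches lay in the window of 1 of them, for TAP1 the start at 32853704. The deposited gene models of TAPBP, TAP1 and PSMB8 extend to 33314387, 32853978 and 32844703, so their matches lie inside those models. The other motifs searched were the GAS core TTCNNNGAA, found in 2 members and 7.66% of windows, the CCAAT box CCAAT, in 5 members and 34.6%, and the kB core GGGNNNNNCC, in 6 members and 58.7%. No ISRE match in a member shared a base with a match of these 3.

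A coding transcript of TAPBP also holds a 7-base word. An earlier scan of these libraries had linked this word to genes higher in both GPX3 hairpin groups than in SCR. The word, GTCGCCC, was chosen on these data and is no independent evidence. It occurred anywhere in a coding transcript of 1 of the 9 members, of 1930 of 13679 tested genes with a coding transcript (14.1%), of 39 of 69 such genes called higher with both hairpins (56.5%), and of 18 of 141 called lower with both (12.8%). Of the members, TAPBP was the one that held it, after the stop codon of TAPBP-234, 1 of its 6 coding transcripts. Levels of single transcripts were not measured. With 1 control hairpin, a rise with the GPX3 hairpins and a fall with the scramble hairpin cannot be told apart.

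None of the 3 heavy chains was called in the unblocked fit. HLA-B (ENSG00000234745, chromosome 6, 31269491 to 31357188, minus strand) encodes a classical chain that presents peptides to CD8 T cells. Its level was 60.8, 71.1 and 68.6 CPM in SCR, 58.0, 75.2 and 82.5 CPM with sh76, and 66.3, 87.6 and 94.1 CPM with sh78. Replicate 1 was the lowest library of all 3 groups, and the groups overlapped. Estimated log2 fold changes were 0.11 with sh76 (95% interval −0.22 to 0.43) and 0.30 with sh78 (−0.02 to 0.63), with edgeR adjusted p of 0.779 and 0.325. Within numbers it was 0.12, 0.30 and 0.46 with sh78, and the blocked fit called it (adjusted p 0.000119), as did the fit without the low-count filter (0.0143). The block also called HLA-B higher in sh78 than in sh76 (log2 fold change 0.20, adjusted p 0.00981).

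HLA-C (ENSG00000204525, chromosome 6, 31268749 to 31272130, minus strand), a ligand of killer-cell receptors as well as of T cells, had 430, 368 and 396 CPM in SCR, 403, 412 and 423 CPM with sh76, and 351, 353 and 386 CPM with sh78. The sh78 libraries lay below every sh76 library and overlapped SCR. Estimated log2 fold changes were 0.05 with sh76 (−0.09 to 0.19), −0.13 with sh78 (−0.27 to 0.01) and −0.18 between the hairpins (−0.33 to −0.04, edgeR adjusted p 0.160). The blocked fit called the last 2 of these (adjusted p 0.0344 and 0.00245), so HLA-B and HLA-C were called in opposite directions there.

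HLA-E (ENSG00000204592, chromosome 6, 30489467 to 30494205, plus strand) is a non-classical chain whose usual cargo is the signal peptide of other heavy chains and which engages the NKG2A receptor. It had 194, 196 and 217 CPM in SCR, 197, 205 and 225 CPM with sh76, and 170, 176 and 217 CPM with sh78. Replicate 3 was the highest library of each group. The log2 fold change was 0.05 (−0.14 to 0.24) with sh76 and −0.11 (−0.30 to 0.08) with sh78, and the block called it lower in sh78 than in sh76 (−0.16, adjusted p 0.00810). Heavy chain genes are polymorphic near-copies of each other, so reads of the alleles of this line may be lost or assigned to another HLA gene, and HLA-B and HLA-C share 35 exon bases in the annotation. Their values are uncertain for that reason.

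B2M (ENSG00000166710, chromosome 15, 44711487 to 44718877, plus strand), the light chain without which most heavy chains do not reach the surface, had 405, 409 and 445 CPM in SCR, 437, 455 and 448 CPM with sh76, and 392, 436 and 461 CPM with sh78. The groups overlapped in each comparison. Its log2 fold change was 0.09 with sh76 (−0.05 to 0.23) and 0.03 with sh78 (−0.11 to 0.18), and no setting called it. It was counted from 6305 to 9396 reads per library and shares no exon base with another gene.

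**Figure D3:**
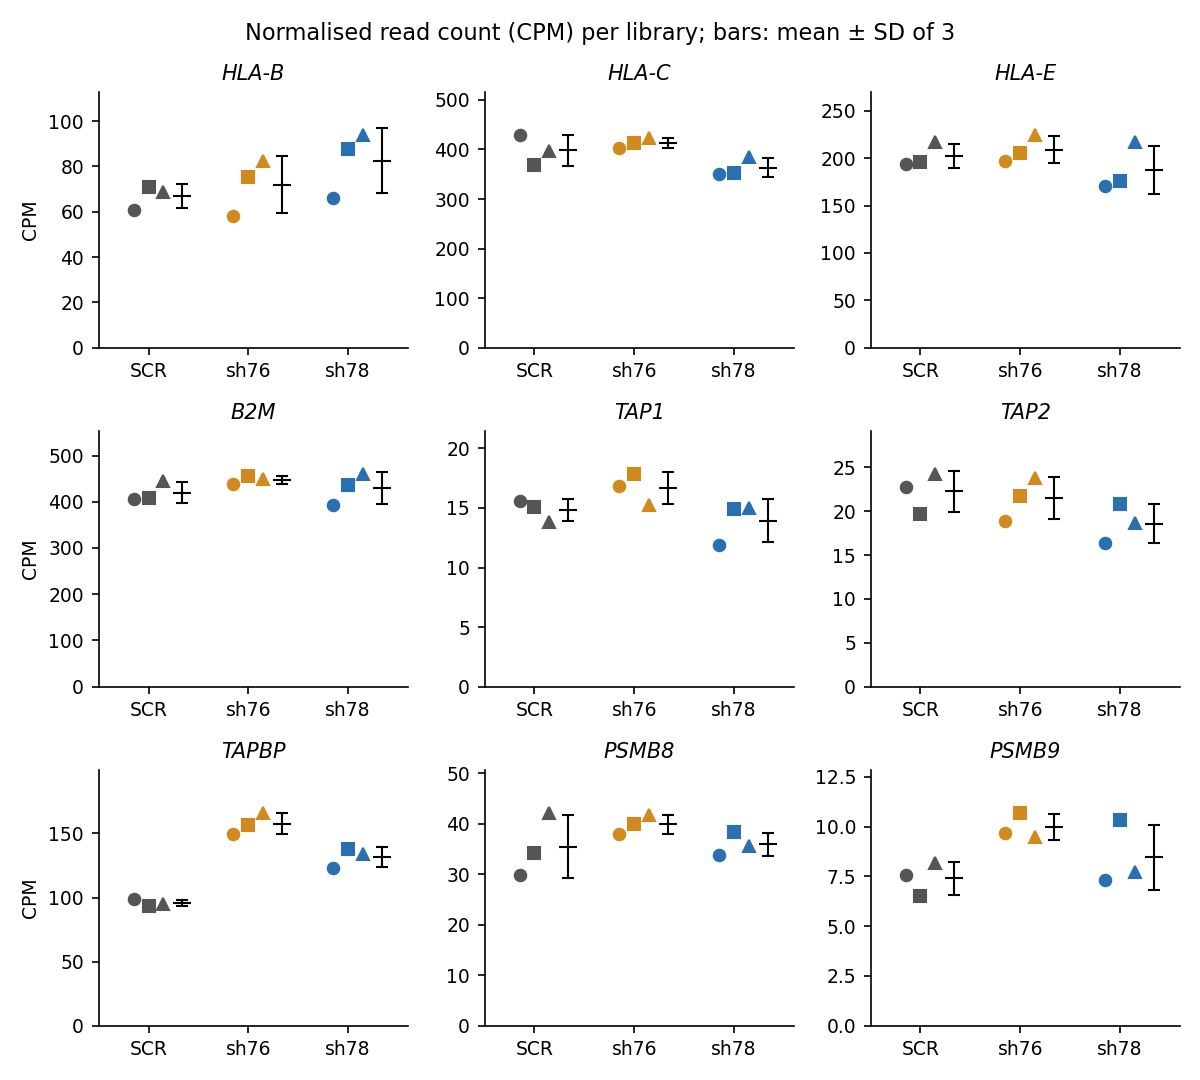
Normalised read count (CPM, linear axis from 0) of each member by library, with circles, squares and triangles for replicates 1, 2 and 3 and bars for the mean ± SD of each group. The TAPBP groups separate at 93.5 to 98.6, 150 to 166 and 123 to 138 CPM, and replicate 1 is the lowest of each group for HLA-B.

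The inducible proteasome subunits were not called in the unblocked fit. PSMB9 (ENSG00000240065, chromosome 6, 32844136 to 32859585, plus strand) had 7.59, 6.51 and 8.15 CPM in SCR, 9.68, 10.7 and 9.50 CPM with sh76, and 7.33, 10.3 and 7.73 CPM with sh78. All sh76 libraries lay above all SCR libraries, and sh78 overlapped both. Its log2 fold change with sh76 was 0.43 (0.08 to 0.77), which did not pass the test over all genes (edgeR adjusted p 0.173) but did with the block (0.0215). With sh78 it was 0.18 (−0.17 to 0.53). PSMB9 was counted from 111 to 221 reads per library, the fewest of the 9 members.

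PSMB8 (ENSG00000204264, chromosome 6, 32840717 to 32844703, minus strand) had 29.9, 34.3 and 42.2 CPM in SCR, 38.0, 39.9 and 41.7 CPM with sh76, and 33.9, 38.3 and 35.6 CPM with sh78. SCR replicate 3 exceeded every other library. Estimated log2 fold changes were 0.17 (−0.07 to 0.41) and 0.02 (−0.22 to 0.26), and no setting called it. PSMB8 and PSMB9 share 139 exon bases on opposite strands, and the antisense gene PSMB8-AS1, at 5 to 23 counts, overlaps both and TAP1. The libraries are non-directional, so reads there cannot be assigned to a strand.

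The inducible subunits were also set against the constitutive subunits they replace. These ratios use the deposited gene-model lengths, and the long model of PSMB9 lowers its level, so they are compared between groups only. The ratio of PSMB9 to PSMB6 in FPKM was 0.0529 ± 0.00333 (SD, n = 3) in SCR, 0.0761 ± 0.00765 with sh76 and 0.0665 ± 0.0113 with sh78. The lowest ratio with a GPX3 hairpin, 0.0573, lay just above the highest in SCR, 0.0566. PSMB8 over PSMB5 was 0.266 ± 0.0345, 0.303 ± 0.0168 and 0.262 ± 0.0130, and SCR overlapped both hairpin groups. PSMB10 over PSMB7 was 0.0904 ± 0.0122, 0.116 ± 0.0178 and 0.0827 ± 0.00243. These ratios are given as a description, with no test.

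Both subunits of the peptide transporter were expressed at low levels, and neither was called in edgeR's unblocked fit. TAP1 (ENSG00000168394, chromosome 6, 32845209 to 32853978, minus strand) had 15.6, 15.1 and 13.8 CPM in SCR, 16.8, 17.9 and 15.3 CPM with sh76, and 11.9, 14.9 and 15 CPM with sh78. All sh78 libraries lay below all sh76 libraries, and sh76 overlapped SCR. Estimated log2 fold changes were 0.17 (−0.10 to 0.43) with sh76, −0.09 (−0.36 to 0.18) with sh78 and −0.26 (−0.53 to 0.01) between them.

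TAP2 (ENSG00000204267, chromosome 6, 32821833 to 32838780, minus strand) had 22.8, 19.7 and 24.3 CPM in SCR, 18.9, 21.8 and 23.8 CPM with sh76, and 16.4, 20.8 and 18.6 CPM with sh78. The groups overlapped. Estimates on the log2 scale were −0.05 (−0.31 to 0.22) with sh76 and −0.26 (−0.53 to 0.01) with sh78, and the block called the latter (adjusted p 0.0442) although 1 of the 3 within-number differences, 0.07 for replicate 2, was above 0. A second gene model, AL669918.1, shares 2064 exon bases with TAP2 and had 0 counts in every library.

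Counts in the pathway lists are read against the share of all tested genes that met each criterion. An unadjusted edgeR p under 0.05 was reached by 17.4% of all tested genes with sh76, 17.5% with sh78 and 16.3% between the hairpins, and DESeq2 called 5.73%, 5.90% and 5.37% of the genes it gave an adjusted p. The shares for the blocked fit are those given above for the members.

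The rest of the peptide-loading machinery gave no call in the unblocked fit. The 6 listed genes (CALR, CANX, PDIA3, TAPBPL, ERAP1 and ERAP2) were all tested, and 0 were called by edgeR or DESeq2 in any comparison. At an unadjusted p under 0.05 there were 0, 1 and 1 in the comparisons of sh76, of sh78 and between hairpins. TAPBPL, which encodes the tapasin-related editor TAPBPR, had a log2 fold change of 0.26 (−0.16 to 0.69) with sh76 and 0.11 (−0.32 to 0.54) with sh78. CALR and PDIA3, chaperones that sit with tapasin in the loading complex, had estimates of −0.02 and 0.09 in sh76 cells and of −0.09 and −0.05 in sh78 cells. The block called CANX lower and ERAP1 higher with sh78, and PDIA3 lower between the hairpins.

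Of the 7 proteasome genes listed beside the members, 0 were called by edgeR in any comparison, with 1, 1 and 2 at an unadjusted p under 0.05, and DESeq2 called 0, 0 and 1. The constitutive subunits PSMB5, PSMB6 and PSMB7 were at −0.01, −0.09 and −0.04 with sh76 and at 0.05, −0.14 and −0.06 with sh78. The chaperone POMP was at 0.00 and −0.01, and the activator subunit PSME1 at −0.03 and −0.03. PSMB10, the third inducible subunit, was at 0.32 and −0.18, and at −0.50 (−0.80 to −0.19) in sh78 against sh76, where edgeR gave an adjusted p of 0.0720 and DESeq2 called it (0.0320). PSME2 was at 0.05 and −0.19, and at −0.24 between the hairpins (adjusted p 0.0735). The block called PSMB10 higher with sh76, PSME2 lower with sh78 and both lower between the hairpins.

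Of 16 listed regulators of class I transcription, 0 were called by edgeR in any comparison, with 2, 2 and 1 at an unadjusted p under 0.05, and DESeq2 called 1, 0 and 0. NLRC5, the transactivator that binds class I promoters, was low, at 2.82 to 4.68 CPM over the 9 libraries, with log2 fold changes of 0.22 (−0.24 to 0.68) and −0.02 (−0.49 to 0.46). CIITA, the related transactivator of class II genes, was 7.52, 6.28 and 5.51 CPM in SCR, 9.38, 9.74 and 8.88 CPM with sh76, and 8.19, 9.63 and 9.55 CPM with sh78. Both hairpin groups lay above SCR, by a log2 fold change of 0.54 (0.21 to 0.86) and 0.50 (0.17 to 0.83). CIITA missed the threshold in edgeR (adjusted p 0.0672 and 0.0886), passed it with the block (0.00303 and 0.00705), and was called with sh76 by DESeq2 (0.0372).

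The partners of NLRC5 and CIITA at the promoter were not called in the unblocked fit. RFXANK was at −0.27 with sh76 and −0.16 with sh78, with both groups below SCR, and the block called the first (adjusted p 0.00358). RFX5 was at 0.09 and 0.10, and RFXAP at −0.10 and 0.00. Of the trimeric CCAAT-binding factor, NFYA was at 0.20 and 0.33 and was called higher with both by the block (adjusted p 0.0283 and 0.000368), whereas NFYB was at −0.09 and −0.11 and NFYC at −0.13 and −0.13. CREB1 was at −0.02 and 0.02. Factors that carry interferon and NF-kB signals were near 0: STAT2 at −0.01 and −0.01, IRF1 at 0.08 and −0.11, IRF2 at 0.01 and 0.03, NFKB1 at −0.08 and 0.12, and RELA at −0.10 and 0.04. NFKB1 was higher in sh78 than in sh76 with the block (0.19, adjusted p 0.0307). IRF9, at 0.344 to 1.69 CPM, had estimates of 0.43 and 0.67 with intervals from −0.65 to 1.51 and from −0.41 to 1.76, too wide to place its direction.

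Among interferon ligands, receptors and signalling genes, 11 of 16 were tested, and the 5 ligands IFNB1, IFNG, IFNL1, IFNL2 and IFNL3 fell below the filter. With sh78, 1 was called: IFNGR1, a chain of the interferon-gamma receptor, rose from 44.7, 43.2 and 43.8 CPM to 51.4, 54.1 and 54.8 CPM (log2 fold change 0.28, SE 0.07, edgeR adjusted p 0.0365). That call held in 4 of the 14 other settings. With sh78, 5 of the 11 tested genes had an unadjusted p under 0.05. With sh76 IFNGR1 was at 0.17 and 0 of the list were called by edgeR or DESeq2, and 3 had an unadjusted p under 0.05. Between the hairpins 0 were called by either tool, and 3 had an unadjusted p under 0.05. With the block, calls were 1 higher and 1 lower with sh76, 1 higher and 3 lower with sh78, and 2 higher and 2 lower between the hairpins.

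Class I-like chains, several of which flag stress to natural killer cells, held 1 call. Of 12 listed genes, 9 were tested, and ULBP1, a ligand of the NKG2D receptor, fell with sh78. It had 4.44, 4.81 and 2.58 CPM in SCR, 2.78, 2.81 and 2.10 CPM with sh76, and 1.18, 2.54 and 1.17 CPM with sh78. The log2 fold change with sh78 was −1.29 (SE 0.33, edgeR adjusted p 0.0396), and SCR replicate 3 lay only just above sh78 replicate 2. The call held in 8 of 14 other settings, and the adjusted p ran up to 0.152. With sh78, 4 of the 9 tested genes had an unadjusted p under 0.05. With sh76, 0 of the list were called by edgeR, with 5 at an unadjusted p under 0.05, and DESeq2 called 2, MICB (0.75) and MR1 (0.54). Between the hairpins 0 were called by edgeR or DESeq2, and 2 had an unadjusted p under 0.05. With the block, calls were 5 higher and 2 lower with sh76, 4 higher and 1 lower with sh78, and 0 higher and 3 lower between them.

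Class II genes, which present peptides taken up from outside and are usually low in epithelial cells, included 2 that rose with sh78. Of 9 listed genes 6 were tested. HLA-DRA, the invariant alpha chain of HLA-DR, had 5.98, 3.70 and 3.04 CPM in SCR, 5.74, 4.75 and 4.82 CPM with sh76, and 9.10, 8.53 and 13.1 CPM with sh78. Every sh78 library lay above the other 6. Its log2 fold change with sh78 was 1.28 (SE 0.24, edgeR adjusted p 0.00730), and 1.01 against sh76 (SE 0.23, adjusted p 0.0284), a call held in 11 of 14 other settings and lost without sh76 replicate 2, sh76 replicate 3 or sh78 replicate 3 (adjusted p up to 0.130).

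CD74, the invariant chain that guards the class II groove, had 78.3, 77.0 and 79.9 CPM in SCR, 81.3, 94.1 and 91.8 CPM with sh76, and 96.0, 104 and 123 CPM with sh78. The 3 groups did not overlap. Its log2 fold change was 0.46 with sh78 (SE 0.09, edgeR adjusted p 0.00808), held in all 14 other settings, and 0.18 with sh76 (adjusted p 0.297), called with the block (0.0146). All 6 tested class II genes had a log2 fold change above 0 with each hairpin. With sh76, 0 were called by edgeR or DESeq2, and 2 had an unadjusted p under 0.05. With sh78, 4 of 6 had an unadjusted p under 0.05, and DESeq2 also called HLA-DPA1 (2.17, adjusted p 0.0248), which had 0.0643 to 0.411 CPM in SCR and 1.02 to 1.43 CPM with sh78. The block called 4 of 6 with each hairpin, at a background of 20.4% and 19.9%. Leukocytes also express these genes, and the leukocyte markers summed to 2.25 to 3.93 CPM in SCR, 3.72 to 4.41 in sh76 and 3.65 to 4.85 in sh78. The part of those cells in the result was not tested.

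**Figure D4:**
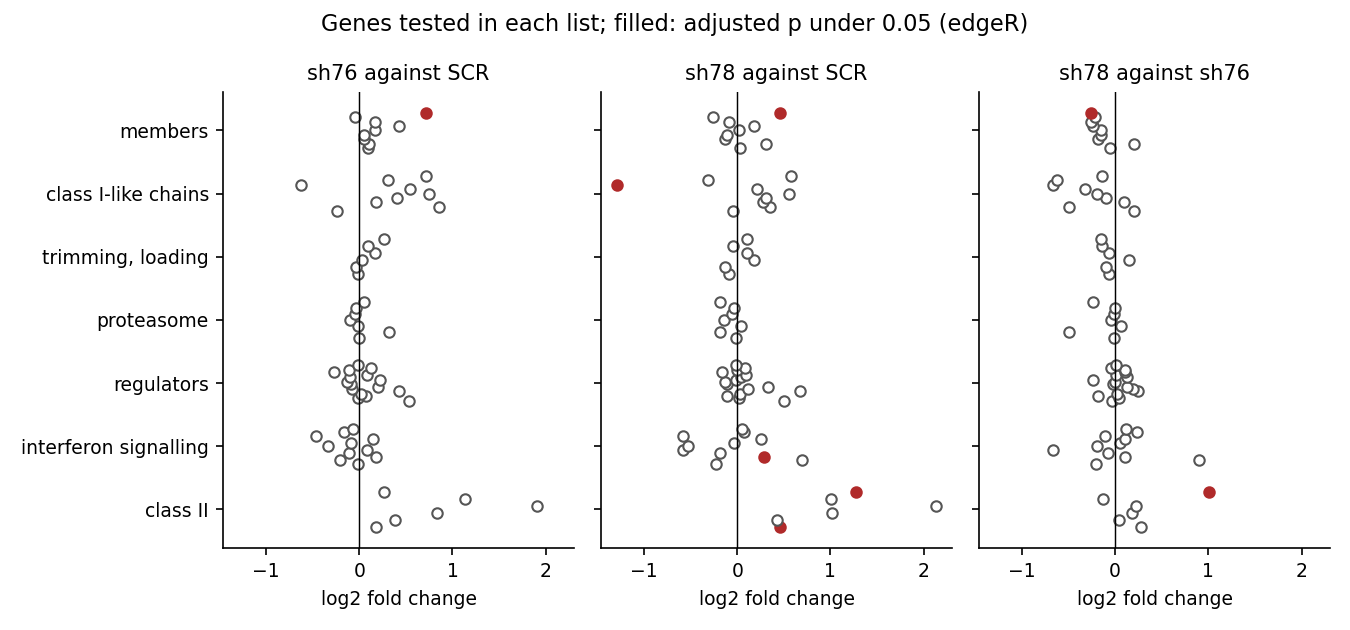
Log2 fold change of every tested gene of the members and of 6 pathway lists in the 3 comparisons, 1 point per gene, with filled points for an edgeR adjusted p under 0.05. Filled points beside TAPBP are ULBP1 (−1.29), IFNGR1 (0.28), HLA-DRA (1.28) and CD74 (0.46) with sh78, and HLA-DRA (1.01) in sh78 against sh76.

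Correlations between members across libraries differed from pair to pair. The Pearson correlation of log2 CPM over the 9 libraries, which share groups and replicate numbers, was 0.71 for HLA-E and B2M, 0.73 for B2M and PSMB8, 0.38 for TAP1 and TAP2, and −0.25 for HLA-B and HLA-C. TAPBP had its highest correlation with PSMB9, at 0.78, which was also the highest of all member pairs. Its correlation was 0.54 with B2M, 0.48 with PSMB8, 0.39 with TAP1 and −0.09 with TAP2. The members' mean centred log2 CPM was lowest in sh78 replicate 1 (−0.19) and SCR replicate 2 (−0.13), and highest in sh76 replicates 3 (0.17) and 2 (0.15). Of 13224 other genes with a mean of at least 1 FPKM in a group, the 5 whose log2 CPM followed that mean most closely over the 9 libraries were SMOX (r = 0.98), MALL (0.95), TGM5 (0.95), PRKG2 (0.95) and CLIP1 (0.95). These r values are the highest of many genes over few libraries, and are given as a description, with no test. SMOX, which encodes spermine oxidase, had 13.1, 12.3 and 13.8 CPM in SCR, 14.1, 15.7 and 15.2 CPM with sh76, and 11.8, 14.4 and 13.9 CPM with sh78.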

How the data were processed

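Libraries were made from poly-A mRNA and do not keep the strand, per the labels' protocols. The submitters' processing notes name HISAT2 2.0.5, featureCounts 1.5.0-p3 and hg38, and their settings are not given in the sources used here. The authors deposited raw counts per gene and FPKM values for 9 libraries. All 58735 gene identifiers, with their starts and ends, matched GENCODE 29 (GRCh38).

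Counts were tested in edgeR 4.0.16 (R 4.3.3). Genes were kept by filterByExpr (minimum count 10, minimum total 15), and TMM scaling and robust quasi-likelihood tests were run with 1 coefficient per group over all 9 libraries. P-values were adjusted by Benjamini-Hochberg across the 17023 genes tested, and a gene was called under 0.05. CPM values use the TMM factors, and correlations used log2 CPM with a prior count of 2. Intervals are 95% intervals of the fit. The common biological coefficient of variation was 10.4%. The code was tested on simulated data.

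Same-numbered libraries of different groups deviated together (r 0.14 to 0.39 in 9 pairs, −0.31 to 0.06 in 18 others), so values with the number as a block are printed where they change a call. Within-group pairs differed by 4.90 to 11.1 in chi-square per degree of freedom, so no library repeated another. Other settings were DESeq2 1.42.0, relative log expression size factors, no low-count filter, only the 2 groups compared, and leaving out each library.

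The members, the lists and the 7-base word were chosen with earlier results of these data known. The genes named were the 9 members and GPX3, up to 5 called genes of each pathway list, the tested genes of the regulator and proteasome lists (1 regulator and 1 sequence are not reported here), and the 5 most alike genes; others were chosen after their values were seen. The fibroblast and endothelial marker lists (5 and 3 genes) summed to 26.3 to 48.3 and 6.23 to 10.8 CPM per library. Promoters came from RefSeq.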

Additional observations from a re-analysis of the deposited data

Results flagged for a closer look

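For 3 genes the change with one hairpin differed from that with the other, by edgeR's test of sh78 against sh76. TAPBP was lower with sh78 (log2 fold change −0.26, adjusted p 0.0399), with every sh78 library below every sh76 library. GPX3 itself was lower with sh78 (−0.86, adjusted p 0.0194), and HLA-DRA was higher with sh78 (1.01, adjusted p 0.0284), again with no overlap between the groups. Leaving out single libraries ended each of these calls in some fits, with the highest adjusted p at 0.163 for TAPBP, 0.0843 for GPX3 and 0.130 for HLA-DRA.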

How the results depend on the processing

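With 3 libraries a group, members with few counts (PSMB9, TAP1, TAP2) had wide intervals. HLA-B, with more counts, also had a wide one (SE 0.15 with sh76). The blocked fit leaves 4 residual degrees of freedom per gene, and its tests also draw on a spread estimated across all genes. The replicate block raised the members called from 1 in each comparison to 2, 4 and 4 (sh76, sh78, sh78 against sh76) and the genes called from 610, 750 and 629 to 3467, 3388 and 3117. Without the low-count filter 1149, 1212 and 1125 genes were called, with 2 members for sh78. In the fit of the 2 groups alone 0 members were called in sh78 against sh76. Leaving out 1 library gave 237 to 655, 418 to 810 and 273 to 780 genes, and 0 to 1 member in sh78 against sh76. These fits turned the sign of an uncalled estimate near 0 in 11 cases, counted over members, comparisons and fits: with sh76 the ranges were −0.0064 to 0.11 for HLA-C, −0.13 to 0.033 for TAP2, −0.0045 to 0.24 for HLA-B and −0.010 to 0.10 for HLA-E. With sh78 they were −0.094 to 0.16 for PSMB8, −0.15 to 0.010 for TAP1 and −0.021 to 0.092 for B2M, and for B2M in sh78 against sh76 −0.11 to 0.0064. The cause was not tested. The blocked fit changed no call of TAPBP.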
